A study of Mus musculus with 88 samples.

Results

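Mouse embryonic stem (ES) cells transfected with Obox6 were compared directly with ES cells transfected with Dux. The comparison rests on 4 libraries, 2 labelled ES_Obox6 and 2 labelled ES_Dux, among the 88 samples of the series, and on all genes of the deposited expression table. The 2 ES_Empty libraries, the transfection controls, gave the base level of each gene. Of 55364 genes in the table, 20063 were tested, namely those with a value of 1 or more TPM, a length-corrected share of the library's reads, in 2 or more of the 10 libraries entered in the model.

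All of these groups used male ES cells of a hybrid C57BL/6 / 129 background with a wild-type genotype. The cells grew feeder-free on gelatin in GMEM with 15% FBS, LIF and 2 inhibitors, 0.5 uM PD0325901 (of MEK) and 3 uM CHIR99021 (of GSK3), and received plasmids with Lipofectamine 2000. The labels do not state the promoter of the RNA-seq plasmids, whether transfected cells were selected, the time of collection for RNA, or whether the libraries came from separate cultures. The p-values below therefore reflect differences among these particular libraries, and that variation may be technical. In bulk libraries, a change in the share of cells that express a gene and a change in RNA per cell cannot be told apart.

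Obox6 belongs to the Obox family of homeodomain transcription factors, a mouse gene family clustered on one chromosome and expressed in oocytes and early embryos. Dux is a transcription factor with a pair of homeodomains, transcribed briefly at the start of zygotic genome activation. In ES cells Dux is known for switching on genes of the 2-cell embryo, such as the Zscan4 family, and a rare subpopulation of ES cells passes through a 2-cell-like state spontaneously. Dux appears in the deposited table under the symbol Duxf3.

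The libraries were uneven before any gene was compared. The 10 most abundant genes took 54.1% and 60.9% of all TPM in the ES_Obox6 libraries, against 72.1% and 70.1% in the ES_Dux libraries, and 17067 and 16490 genes reached 1 TPM in ES_Obox6, against 12071 and 12806 in ES_Dux. TPM sum to a constant, so a larger share for some genes leaves less for the others. Each library was therefore rescaled by a median-ratio factor, and all values below are scaled TPM unless called deposited. The factors were 1.29 and 1.14 in ES_Obox6, against 0.522 and 0.554 in ES_Dux. How much of this difference comes from the 10 most abundant genes was not tested. Scaling moved the median log2 fold change of all genes to 0.09, against 0.85 with the TPM as deposited. Log2 values of the paired libraries correlated at r = 0.940 in ES_Obox6, 0.930 in ES_Dux and 0.961 in ES_Empty, across genes, which are not independent replicates. The steps between low values put 1 read on a 1 kb transcript at 0.247 and 0.234 deposited TPM in ES_Obox6 and at 0.141 and 0.200 TPM in ES_Dux, so levels under about 1 TPM rest on a few reads. One ES_Dux column carries a replicate number that no label has, and it is called the unnumbered ES_Dux library.

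The transfected genes matched the labels. Obox6 stood at 1572 and 1723 TPM in the ES_Obox6 libraries, against 0 and 1.08 TPM in ES_Dux, and was listed at 0 in both ES_Empty libraries. Duxf3 stood at 0.544 and 0.457 TPM in ES_Obox6, against 2963 and 3571 TPM in ES_Dux, with 0 and 0.256 TPM in ES_Empty. Each factor was thus near the level of 1 or a few reads where the other was introduced. Whether the counted Obox6 and Duxf3 reads came from the plasmids or from the genome was not tested.

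A gene was called where the limma adjusted p was under 0.05 and the log2 fold change, ES_Obox6 over ES_Dux on log2(scaled TPM + 1), was at least 1 in size. By this rule 1403 genes (6.99% of those tested) were higher in ES_Obox6 and 1569 (7.82%) were lower. With the TPM as deposited 36.3% of genes were called higher and 3.74% lower. Higher genes made up 47.2% of the calls after scaling and 90.7% with the TPM as deposited. All 1403 higher genes were also called higher with the deposited TPM, and 761 of the lower genes (3.79% of those tested) were called lower on both scales. The directions differed in size of change: 278 higher and 690 lower genes differed by at least 4-fold, and 3 higher and 102 lower genes by at least 32-fold. The groups did not overlap, with both ES_Obox6 libraries above both ES_Dux libraries, for 35.4% of all genes tested, and both below for 26.7%.

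**Figure D1:**
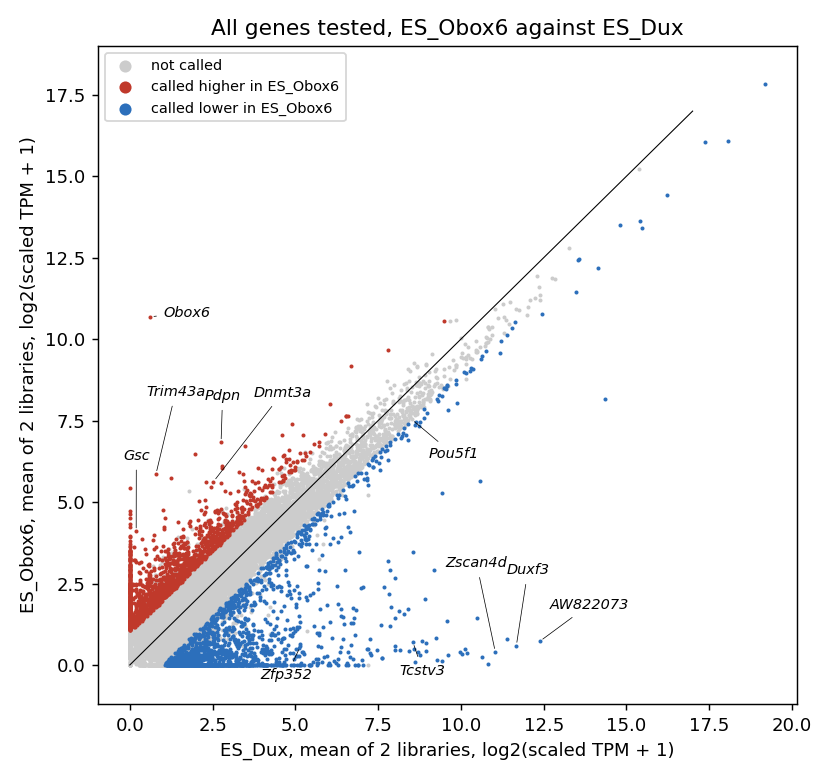
Mean level of each gene tested in ES_Obox6 (vertical axis) against ES_Dux (horizontal axis), as log2(scaled TPM + 1), 2 libraries each. Red points were called higher and blue points lower in ES_Obox6. The blue points reach far along the lower edge, with Duxf3 and AW822073 at the right, while the red points, apart from Obox6, keep closer to the line of equal level.

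Genes of the 2-cell stage were lower in ES_Obox6 almost throughout. Of 57 tested members of a list of 2-cell-stage genes, 51 were lower, 2 were higher and 4 were not called, with a median log2 fold change of -4.97, beside 7.82% called lower and a median of 0.09 over all genes tested. Their summed level was 119 and 118 TPM in the ES_Obox6 libraries, against 21747 and 22458 TPM in ES_Dux and 18.3 and 9.54 TPM in ES_Empty. Trim43a, 1 of the 2 higher members, gave 57.8 and 56.0 TPM of the ES_Obox6 sums. With the deposited TPM 51 were again lower, and leaving out single libraries kept 37 to 51 of them called lower. Of the 57, 4 were listed at 0 in both ES_Obox6 libraries, so their fold changes are set by the pseudocount.

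The Zscan4 genes encode SCAN and zinc-finger proteins linked to telomere maintenance and mark the 2-cell-like state. Zscan4d stood at 0.407 and 0.226 TPM in ES_Obox6, against 1985 and 2224 TPM in ES_Dux, with 0.0380 and 0.0338 TPM in ES_Empty. The groups did not overlap, and ES_Obox6 was near the ES_Empty level (log2 fold change to ES_Dux -10.64 ± 0.22 SE, adjusted p = 6.0e-07, limma). Zscan4c stood at 0.336 and 0.271 TPM in ES_Obox6, against 1063 and 945 TPM in ES_Dux. All 9 tested Zscan4 genes and pseudogenes were lower in ES_Obox6 on both scales, with log2 fold changes between -10.78 and -9.30 and no mean level above 0.395 TPM in ES_Obox6.

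AW822073 had the largest deficit of all named genes. It stood at 0.472 and 0.839 TPM in ES_Obox6, against 5163 and 5536 TPM in ES_Dux (log2 fold change -11.67 ± 0.27 SE, adjusted p = 8.2e-07). Tcstv3, a member of a 2-cell-specific gene cluster, stood at 0.246 and 1.01 TPM in ES_Obox6, against 350 and 398 TPM in ES_Dux (log2 fold change -7.89 ± 0.31 SE, adjusted p = 8.0e-06). Zfp352, a zinc-finger gene of the 2-cell embryo, stood at 0.420 and 0.542 TPM in ES_Obox6, against 31.5 and 37.6 TPM in ES_Dux (log2 fold change -4.58 ± 0.19 SE, adjusted p = 9.1e-06). The groups did not overlap for any of the 3 genes. The ES_Obox6 levels of Tcstv3 and AW822073 rest on few reads and differed between the 2 libraries. Usp17le, a member of a deubiquitinase family, was at 1.54 and 1.86 TPM in ES_Obox6, against 1459 and 1384 TPM in ES_Dux. Pramef25, a leucine-rich repeat gene of the PRAME family, was at 0.227 and 0 TPM in ES_Obox6, against 603 and 636 TPM in ES_Dux.

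**Figure D2:**
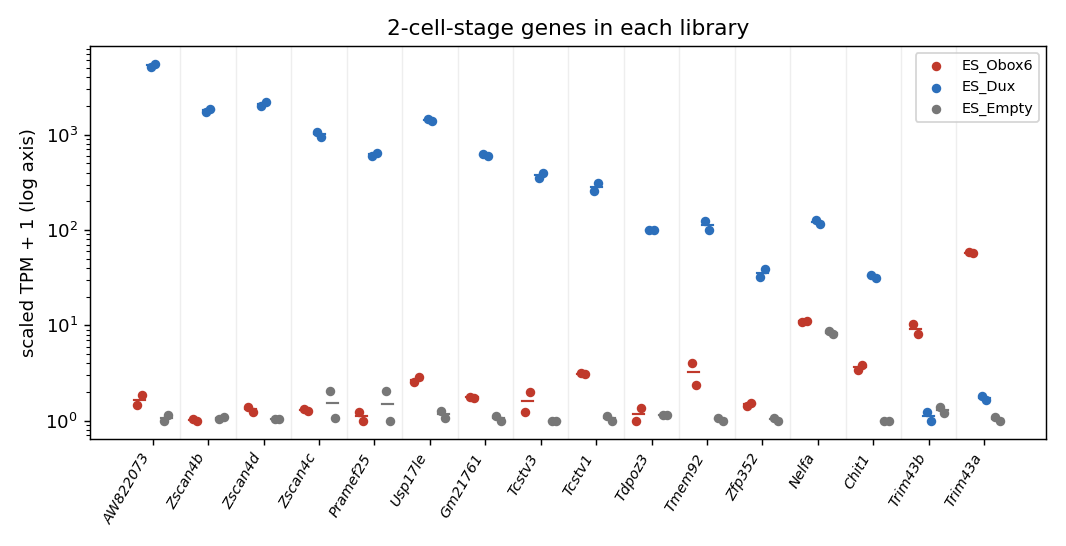
Scaled TPM + 1 on a log axis for 16 genes of the 2-cell list in each library of ES_Obox6 (red), ES_Dux (blue) and ES_Empty (grey). Points are libraries and short lines their means. From AW822073 to Chit1 the blue points stand above the red ones, and for Trim43b and Trim43a the red points stand above the blue ones.

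Not every member of the 2-cell list was at the control level in ES_Obox6. Against ES_Empty, 10 of the 57 were called higher in ES_Obox6, where 3.30% of all genes tested were, and 51 of the 57 were called higher in ES_Dux, where 8.00% were. These contrasts share the ES_Empty libraries. Chit1, a chitinase gene, stood at 2.43 and 2.83 TPM in ES_Obox6, against 32.6 and 30.6 TPM in ES_Dux, and was listed at 0 in both ES_Empty libraries. Tcstv1 stood at 2.19 and 2.06 TPM in ES_Obox6, against 253 and 307 TPM in ES_Dux, with 0.124 and 0 TPM in ES_Empty. Tmem92, a transmembrane protein gene, stood at 3.06 and 1.35 TPM in ES_Obox6, against 125 and 100.0 TPM in ES_Dux. These levels in ES_Obox6 were above those of ES_Empty and far under those of ES_Dux. Nelfa, a subunit of the negative elongation factor, is expressed in ES cells generally and stood at 9.91 and 10.1 TPM in ES_Obox6, against 125 and 113 TPM in ES_Dux and 7.79 and 7.02 TPM in ES_Empty.

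The Trim43 genes, which encode tripartite-motif proteins and are transcribed in preimplantation embryos, went the other way. Trim43a stood at 57.8 and 56.0 TPM in ES_Obox6, against 0.817 and 0.637 TPM in ES_Dux, with 0.0871 and 0 TPM in ES_Empty (log2 fold change to ES_Dux 5.07 ± 0.09 SE, adjusted p = 2.9e-07). Trim43b stood at 9.33 and 7.18 TPM in ES_Obox6, against 0.239 and 0 TPM in ES_Dux (log2 fold change 3.05, adjusted p = 9.5e-05). Trim43c was at 1.31 and 1.17 TPM in ES_Obox6, against 0.136 and 0.726 TPM in ES_Dux, and was not called (adjusted p = 0.059). Against ES_Empty, Trim43a differed by 0.73 on the log2 scale in ES_Dux, under the threshold of 1, and by 5.79 in ES_Obox6. How reads shared by near-identical copies were counted is not given in the sources used here, so the split between Trim43a and Trim43b, and between single copies of Zscan4, Usp17l or Tdpoz genes, is uncertain.

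Many genes lower in ES_Obox6 lay close to one another. Of 503 genes called lower on both scales that had a position in the RefSeq annotation (GRCm38.p6), 227 (45.1%) fell in 27 runs of at least 3 such genes no more than 200 kb apart, against 284 of 1113 higher genes (25.5%) in 75 runs. The longest lower run held 35 genes on chromosome 7, from 10650299 to 11689066, and included the Zscan4 genes. The next held 33 genes on chromosome 12 from 87479986 to 88321762, among them Gm2016, Gm2022 and Gm8300, and 19 genes on chromosome 3 from 93628640 to 94267176, 8 of them named Tdpoz or Spopfm, whose products carry TRAF and BTB/POZ domains, and 11 with Gm symbols. A run of 17 genes on chromosome 4, from 143456835 to 143994369, held Pramef6, Pramef17 and Pramef25, and 13 genes on chromosome 13, from 119827961 to 120318261, included Tcstv1, Tcstv3 and AF067061. All 9 tested Tdpoz and Spopfm genes, all 6 Usp17l genes and all 4 Tcstv genes were lower in ES_Obox6 on both scales. Of 11 tested Pramef and Pramel genes 5 were lower and none higher, with log2 fold changes from -9.13 to 0.86. Of 17 tested Obox4 pseudogenes, all were lower after scaling and 14 on both scales, while none of 8 Obox3 pseudogenes was called. The filter admits genes through the libraries where they are high, which limits what these family counts can show. No Obox4 pseudogene had a mean above 0.168 TPM in ES_Obox6 or under 1.31 TPM in ES_Dux. The Obox3 pseudogenes had means of 0 in ES_Obox6 and of at most 1.03 TPM in ES_Dux, with little room for a call. These runs were sought after the values had been seen. The share of genes in runs was not computed for all tested genes, nor for sets of equal size. Whether the lower genes lay closer together than tested genes in general was therefore not tested. The shares of 45.1% and 25.5% come from sets of unequal size and are a description only.

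Promoter windows, 250 bases before to 50 after the RefSeq start, were searched for 2 homeodomain motifs, chosen after the values were seen and other motifs had been tried. GATTNAATC is the core of the site described for mouse Dux and is its own reverse complement. TAATCC, or GGATTA on the other strand, is the site of Crx- and Otx-type homeodomains, and the motifs can overlap by the letters TAATC, as they do in the AF067061 window. GATTNAATC was present in the windows of 16 of 186 genes lower in ES_Obox6 on both scales (8.6%), of 9 of 26 genes lower by at least 32-fold (34.6%), of 0 of 705 higher genes and of 34 of 10010 tested genes with a window (0.34%). Duxf3, the gene transfected in ES_Dux, is counted among the 16 and the 9. TAATCC was present in 44 of 186 lower genes (23.7%) and in 8 of 26 genes lower by at least 32-fold (30.8%). It was present in 61 of 705 higher genes (8.65%) and in 745 of 10010 tested genes (7.44%). Many of the windows are copies of one another: 9 of the 16 lower genes with GATTNAATC shared the 20-base stretch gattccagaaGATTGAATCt. Among the others, the windows of Gm13040 and Gm13057 were 100% identical, and those of Gm21761 and AF067061 were 88.3% identical. The shares for GATTNAATC therefore count copies of a few sequences and not independent genes. A match is a description of the letters in a window and not a binding site.

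Windows of 3 strongly lower genes are printed with GATTNAATC in capitals because they come from different clusters, and all are on the plus strand of GRCm38.p6. AF067061 was at 0.273 and 0.512 TPM in ES_Obox6, against 385 and 373 TPM in ES_Dux. Gm21304 was at 0.296 and 0.159 TPM in ES_Obox6, against 415 and 447 TPM in ES_Dux. Gm13043 was listed at 0 in both ES_Obox6 libraries, against 29.9 and 30.6 TPM in ES_Dux. All 3 were thus near or at 0 in ES_Obox6, and each window holds the motif at another distance from the start.
AF067061, chr13:120262845-120263144: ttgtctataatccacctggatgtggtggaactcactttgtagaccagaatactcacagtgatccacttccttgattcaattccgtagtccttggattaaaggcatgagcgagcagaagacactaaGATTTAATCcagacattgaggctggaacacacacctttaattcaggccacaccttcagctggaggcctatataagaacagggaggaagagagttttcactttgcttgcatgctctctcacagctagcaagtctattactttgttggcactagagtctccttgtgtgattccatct
Gm21304, chr10:104168265-104168564: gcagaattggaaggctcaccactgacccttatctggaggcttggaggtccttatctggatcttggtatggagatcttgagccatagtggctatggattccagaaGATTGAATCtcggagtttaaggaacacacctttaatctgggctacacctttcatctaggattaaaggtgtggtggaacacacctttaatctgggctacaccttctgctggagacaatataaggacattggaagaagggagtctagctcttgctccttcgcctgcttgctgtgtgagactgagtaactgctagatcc
Gm13043, chr4:143511093-143511392: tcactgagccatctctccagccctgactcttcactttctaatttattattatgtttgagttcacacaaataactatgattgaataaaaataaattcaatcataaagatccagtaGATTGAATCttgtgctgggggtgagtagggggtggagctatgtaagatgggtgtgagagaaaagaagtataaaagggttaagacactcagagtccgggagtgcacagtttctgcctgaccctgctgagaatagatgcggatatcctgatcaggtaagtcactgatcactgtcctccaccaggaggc

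The windows of Zfp352 and Trim43a, which moved in opposite directions, are printed with TAATCC in capitals, both on the plus strand of GRCm38.p6. Zfp352 holds 9 copies in a tandem array and Trim43a holds 1, just after the start. The gene with the array was the lower one in ES_Obox6.
Zfp352, chr4:90218570-90218869: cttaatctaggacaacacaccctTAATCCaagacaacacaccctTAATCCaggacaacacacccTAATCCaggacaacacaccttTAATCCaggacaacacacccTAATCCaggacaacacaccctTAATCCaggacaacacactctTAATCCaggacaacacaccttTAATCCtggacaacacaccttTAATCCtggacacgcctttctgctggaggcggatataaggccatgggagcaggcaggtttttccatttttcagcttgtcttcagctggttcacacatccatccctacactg
Trim43a, chr9:88580641-88580940: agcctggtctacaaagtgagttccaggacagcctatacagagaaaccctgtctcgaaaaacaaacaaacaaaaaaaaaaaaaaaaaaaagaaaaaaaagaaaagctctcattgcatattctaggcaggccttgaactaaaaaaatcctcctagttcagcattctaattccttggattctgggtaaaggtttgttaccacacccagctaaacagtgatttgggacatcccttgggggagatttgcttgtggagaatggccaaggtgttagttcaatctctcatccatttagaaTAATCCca

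After Obox6 itself, the genes picked for the highest log2 fold changes were led by Trim43a, CR974473.1 and Pdpn. Pdpn, which encodes the membrane glycoprotein podoplanin, stood at 111 and 114 TPM in ES_Obox6, against 6.54 and 4.97 TPM in ES_Dux and 3.42 and 3.46 TPM in ES_Empty (log2 fold change to ES_Dux 4.08 ± 0.16 SE, adjusted p = 8.0e-06). Gsc, the organiser homeobox gene goosecoid, stood at 14.9 and 17.3 TPM in ES_Obox6, against 0 and 0.285 TPM in ES_Dux (log2 fold change 3.91 ± 0.24 SE, adjusted p = 5.5e-05). Cited1, a transcriptional co-regulator, stood at 24.3 and 27.4 TPM in ES_Obox6, against 1.39 and 0.618 TPM in ES_Dux (log2 fold change 3.77 ± 0.23 SE, adjusted p = 5.4e-05). In all 3 genes ES_Dux stayed near ES_Empty, from which it differed by 0.59, -0.08 and 0.34 on the log2 scale.

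The remaining genes picked by size of change were Gpat3, a glycerol-3-phosphate acyltransferase (log2 fold change 3.50), Septin4, a septin GTPase (3.49), and Tmem41b, an endoplasmic reticulum scramblase needed for autophagosome formation (3.33). Septin4 stood at 10.6 and 11.8 TPM in ES_Obox6, against 0.0995 and 0.0665 TPM in ES_Dux. Tmem41b stood at 50.5 and 45.9 TPM in ES_Obox6, against 3.13 and 4.80 TPM in ES_Dux. CR974473.1 and Iglj3 were also picked, but their ES_Obox6 libraries differed widely, at 11.4 and 39.9 TPM and at 15.1 and 5.41 TPM. Both ES_Dux libraries listed these genes at 0. The ES_Empty libraries held 10.3 and 4.58 TPM of CR974473.1 and 0 and 4.04 TPM of Iglj3. Neither gene was called against ES_Empty in ES_Obox6. Iglj3, from 19067041 to 19067078, is far shorter than 1 kb, so its levels rest on few reads. Their calls were lost when single libraries were left out, under 3 of 4 omissions for CR974473.1 and 2 of 4 for Iglj3.

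**Figure D3:**
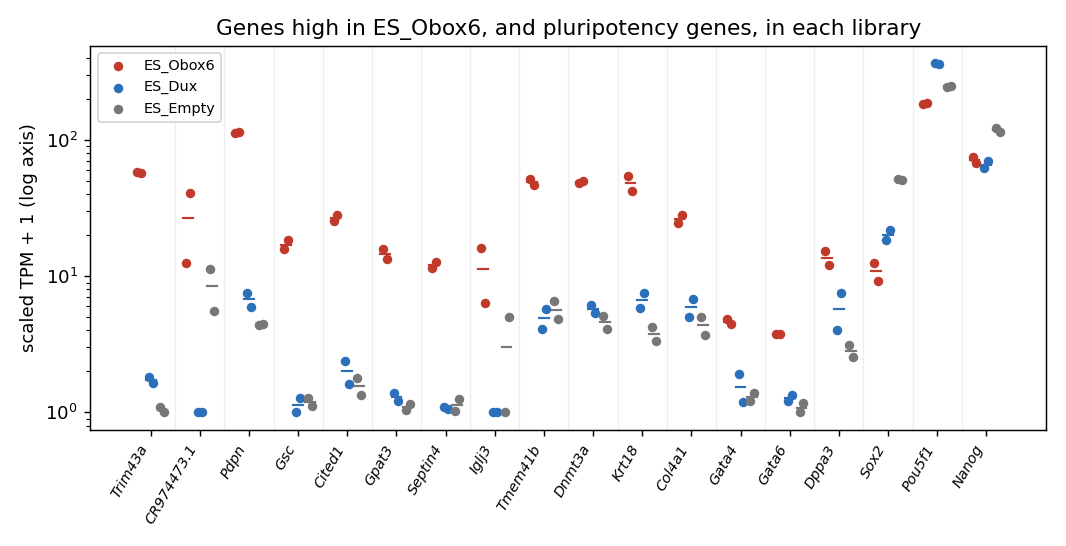
Scaled TPM + 1 on a log axis for genes high in ES_Obox6, and for Sox2, Pou5f1 and Nanog, in each library of ES_Obox6 (red), ES_Dux (blue) and ES_Empty (grey). Points are libraries and short lines their means. From Trim43a to Dppa3 the red points stand above the blue ones, at Pou5f1 and Sox2 below them, and at Nanog they overlap.

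The primitive endoderm is the extraembryonic lineage that forms beside the epiblast in the blastocyst. Of 14 tested genes of this lineage 7 were higher in ES_Obox6 and none lower, with a median log2 fold change of 1.26, beside 6.99% called higher and a median of 0.09 over all genes. The lineage's transcription factors Gata4 and Gata6 were among them. Gata4 stood at 3.82 and 3.47 TPM in ES_Obox6, against 0.900 and 0.185 TPM in ES_Dux (log2 fold change 1.63 ± 0.22 SE, adjusted p = 0.0015). Gata6 stood at 2.76 TPM in each ES_Obox6 library, against 0.208 and 0.333 TPM in ES_Dux (log2 fold change 1.57 ± 0.17 SE, adjusted p = 0.00062). The groups did not overlap for either factor, and both remained at a few TPM. With a pseudocount of 5 both calls ended (log2 fold changes 0.64 and 0.56). With the deposited TPM 8 of the 14 genes were higher, where 36.3% of all genes were. Other scalings, pseudocounts, filters, moderation and fitted libraries gave 3 to 8 higher.

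Basement membrane genes of the same list reached higher levels. Col4a1, a collagen IV chain, stood at 23.6 and 27.3 TPM in ES_Obox6, against 4.05 and 5.86 TPM in ES_Dux (log2 fold change 2.16, adjusted p = 0.00040). Its partner Col4a2 (log2 fold change 1.70) and the laminin chain gene Lamb1 (1.66) were likewise higher. Sparc and Lamc1, which also encode matrix proteins, were not called, with log2 fold changes of -0.72 and -0.44. Of 22 listed genes, 8 did not reach the filter, among them Sox17, Pdgfra and Foxa2. The summed level of the tested members was 162 and 174 TPM in ES_Obox6, against 167 and 160 TPM in ES_Dux, so the list as a sum did not separate the groups.

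Trophoblast genes showed a narrower difference, with 2 of 12 tested genes higher, none lower and a median log2 fold change of -0.17, beside 6.99% higher and 7.82% lower over all genes. Both ES_Obox6 libraries were below both ES_Dux libraries for 7 of the 12 and above them for 4, beside 26.7% and 35.4% of all genes. Bmp4, a member without overlap of the groups, was at a log2 fold change of -1.14 and was not called (limma adjusted p = 0.053). On the deposited scale 4 were higher, where 36.3% of all genes were. Krt18, a keratin of simple epithelia, stood at 53.2 and 41.0 TPM in ES_Obox6, against 4.89 and 6.54 TPM in ES_Dux (log2 fold change 2.84 ± 0.22 SE, adjusted p = 0.00016). Its partner keratin Krt8 stood at 19.01 and 16.6 TPM in ES_Obox6, against 9.11 and 12.7 TPM in ES_Dux, and did not reach the fold threshold (log2 fold change 0.67), though it was called higher with the deposited TPM (1.73, adjusted p = 0.00056). Hand1, a trophoblast transcription factor, was at 1.34 and 0.926 TPM in ES_Obox6 and listed at 0 in both ES_Dux libraries. Its call ended without ES_Obox6 replicate 1 (log2 fold change 0.93) and with a pseudocount of 5 (0.29). Cdx2, Elf5, Gata3 and Gata2, which define the lineage, did not reach the filter.

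Markers of the ES cell state were present in every library, and none of the 8 was called in either direction after scaling, while 4 were called higher with the deposited TPM. Pou5f1, the core pluripotency factor OCT4, stood at 185 TPM in each ES_Obox6 library, against 366 and 363 TPM in ES_Dux and 246 and 249 TPM in ES_Empty (log2 fold change -0.97 ± 0.09 SE, adjusted p = 0.00028), just short of the fold threshold and 0.19 with the deposited TPM. Sox2, its partner factor, stood at 11.5 and 8.29 TPM in ES_Obox6, against 17.5 and 20.9 TPM in ES_Dux and 50.5 and 49.6 TPM in ES_Empty. Both transfected groups were called lower than ES_Empty for Sox2, by log2 differences of -2.24 in ES_Obox6, where 1.18% of all genes were lower, and -1.34 in ES_Dux, where 2.35% were, while their own difference was not called (-0.90, adjusted p = 0.0036, and 0.19 with the deposited TPM). Nanog stood at 74.0 and 67.1 TPM in ES_Obox6, against 61.5 and 68.8 TPM in ES_Dux and 121 and 115 TPM in ES_Empty. Its ES_Obox6 and ES_Dux libraries overlapped (log2 fold change 0.11, limma adjusted p = 0.35), but it was called higher with the deposited TPM (1.26, adjusted p = 0.0023). Neither group was called against ES_Empty for Nanog. Of the 8 markers, 3 were called lower than ES_Empty in ES_Obox6 and 2 in ES_Dux. The list of fibroblast genes had 6 of 16 members over the filter, with a summed level of 60.7 and 56.5 TPM in ES_Obox6, against 132 and 131 TPM in ES_Dux and 132 and 119 TPM in ES_Empty. Its part in other results was not tested. Col6a1 was lower in ES_Obox6 on both scales and Vim after scaling only (log2 fold changes -2.60 and -1.52), and Col1a1, Col1a2, Postn and Dcn did not reach it.

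Within the wider list of naive pluripotency genes, 6 of 40 were higher, 2 lower and 32 not called, beside 6.99% higher and 7.82% lower over all genes, with a median log2 fold change of 0.11. With the deposited TPM 25 of the 40 were higher and none lower, where 36.3% of all genes were higher. Against ES_Empty, 10 of the 40 were lower and 3 higher in ES_Obox6, beside 1.18% and 3.30% of all genes. In ES_Dux 12 were lower than ES_Empty and 1 higher, beside 2.35% and 8.00% of all genes. Lefty2, an inhibitor and target of NODAL, stood at 23.9 and 24.8 TPM in ES_Obox6, against 6.11 and 6.09 TPM in ES_Dux and 13.9 and 14.4 TPM in ES_Empty (log2 fold change to ES_Dux 1.84 ± 0.14 SE, adjusted p = 0.00016). Nodal itself stood at 32.2 and 46.6 TPM in ES_Obox6, against 8.26 and 4.31 TPM in ES_Dux and 20.8 and 20.2 TPM in ES_Empty (log2 fold change to ES_Dux 2.50), and was picked out with its values known. Tdgf1, which encodes a NODAL co-receptor, was not called after scaling (0.90) and was called higher with the deposited TPM (2.05). For Lefty2 and Nodal, ES_Dux was called lower than ES_Empty, and ES_Obox6 was not called against ES_Empty.

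Socs3, a feedback inhibitor of LIF signalling, stood at 50.04 and 63.1 TPM in ES_Obox6, against 8.60 and 10.6 TPM in ES_Dux and 25.5 and 21.2 TPM in ES_Empty (log2 fold change to ES_Dux 2.44 ± 0.17 SE, adjusted p = 0.00010). Here the control lay between the groups, and each transfected group differed from it past the threshold. Tbx3, a T-box factor downstream of LIF, stood at 38.6 and 39.7 TPM in ES_Obox6, against 12.2 and 12.7 TPM in ES_Dux and 29.5 and 31.8 TPM in ES_Empty. Dppa3, the maternal factor STELLA, stood at 14.4 and 11.1 TPM in ES_Obox6, against 3.03 and 6.48 TPM in ES_Dux and 2.13 and 1.55 TPM in ES_Empty (log2 fold change to ES_Dux 1.31 ± 0.28 SE, adjusted p = 0.011). The call for Dppa3 was lost without ES_Obox6 replicate 1 (log2 fold change 1.13) and without ES_Dux replicate 1 (0.85). Spp1, a secreted phosphoprotein, was lower in ES_Obox6 after scaling (log2 fold change -1.44) and not with the deposited TPM (-0.29).

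FGF and ERK pathway genes were measured under MEK inhibition in all groups, with PD0325901 in the medium throughout. Of 21 tested members 4 were higher, 2 lower and 15 not called, beside 6.99% higher and 7.82% lower over all genes, with a median of 0.44. The deposited TPM gave 12 higher and 1 lower, beside 36.3% and 3.74% of all genes. Fgf4, the main FGF ligand of ES cells, stood at 38.8 and 45.7 TPM in ES_Obox6, against 15.1 and 12.5 TPM in ES_Dux and 46.5 and 49.3 TPM in ES_Empty (log2 fold change to ES_Dux 1.55 ± 0.14 SE, adjusted p = 0.00029). The receptor gene Fgfr3 stood at 3.72 and 4.98 TPM in ES_Obox6, against 0.491 and 0.479 TPM in ES_Dux and 0.109 and 0.129 TPM in ES_Empty (log2 fold change to ES_Dux 1.84). Against ES_Empty, Fgf4 was called lower in ES_Dux and not called in ES_Obox6, and Fgfr3 was called higher in ES_Obox6 and not called in ES_Dux. Etv4, an ETS factor induced by FGF signalling, stood at 4.62 and 6.95 TPM in ES_Obox6, against 24.6 and 26.1 TPM in ES_Dux, and was called lower after scaling (log2 fold change -1.98, adjusted p = 0.00016) but not with the deposited TPM (-0.89).

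Formative and primed genes, which rise as ES cells leave the naive state, were split, with 4 of 15 higher, 3 lower and 8 not called, beside 6.99% higher and 7.82% lower over all genes. Pou3f1, the POU factor OCT6, stood at 9.02 and 9.45 TPM in ES_Obox6, against 1.54 and 1.502 TPM in ES_Dux and 0.942 and 0.758 TPM in ES_Empty (log2 fold change to ES_Dux 2.02 ± 0.15 SE, adjusted p = 0.00013). Pim2, a kinase gene, was also higher (1.48). The lowest value of the list was that of Etv4, described above (-1.98), which was called lower after scaling only. With the deposited TPM 7 of the list were higher and none lower, beside 36.3% and 3.74% of all genes.

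DNA methyltransferase genes differed in opposite directions. Dnmt3a, a de novo methyltransferase, stood at 47.6 and 49.3 TPM in ES_Obox6, against 5.15 and 4.38 TPM in ES_Dux and 4.13 and 3.12 TPM in ES_Empty (log2 fold change to ES_Dux 3.10 ± 0.13 SE, adjusted p = 8.7e-06). Dnmt3b, its paralogue, stood at 48.3 and 51.2 TPM in ES_Obox6, against 22.5 and 24.6 TPM in ES_Dux (log2 fold change 1.05), close enough to the threshold that it was lost without ES_Dux replicate 1 (0.97). Dnmt3l, the catalytically inactive cofactor of both, stood at 6.85 and 7.64 TPM in ES_Obox6, against 38.6 and 39.0 TPM in ES_Dux and 39.5 and 41.8 TPM in ES_Empty (log2 fold change to ES_Dux -2.27 ± 0.10 SE, adjusted p = 1.2e-05). Thus Dnmt3a and Dnmt3l in ES_Dux both lay near the ES_Empty level, and the ES_Obox6 libraries stood apart on opposite sides. Dnmt3l remained lower with the deposited TPM (-1.16). Of the 38 tested genes for DNA methylation and repressive chromatin, 5 were higher and 2 lower, beside 6.99% and 7.82% of all genes, with a median of 0.39. The deposited TPM called 27 higher and 1 lower, beside 36.3% and 3.74% of all genes. Morc3, a chromatin ATPase, was higher (1.08) and was lost without ES_Dux replicate 1 (0.999). The maintenance methyltransferase gene Dnmt1 was at a log2 fold change of 0.01.

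Stress-response genes were higher in ES_Obox6 where they were called, with 1 exception, Gadd45a. Of 22 tested stress and immediate early genes 10 were higher and 1 lower, beside 6.99% and 7.82% of all genes, with a median of 0.67, and leaving out single libraries gave 4 to 9 higher. The deposited scale gave 15 higher, where 36.3% of all genes were, and none lower, so the call for Gadd45a was lost (-0.13). Trib3, a pseudokinase induced by the ATF4 branch of the integrated stress response, stood at 10.99 and 11.3 TPM in ES_Obox6, against 1.91 and 1.87 TPM in ES_Dux and 7.97 and 7.73 TPM in ES_Empty (log2 fold change to ES_Dux 2.07 ± 0.15 SE, adjusted p = 0.00010). Atf4 stood at 118 and 102 TPM in ES_Obox6, against 47.7 and 45.5 TPM in ES_Dux and 77.3 and 77.4 TPM in ES_Empty (log2 fold change to ES_Dux 1.22). Nupr1, a stress-induced nuclear protein, stood at 17.1 and 15.5 TPM in ES_Obox6, against 3.65 and 2.87 TPM in ES_Dux and 4.05 and 3.30 TPM in ES_Empty (log2 fold change to ES_Dux 2.02). Trib3 was lower than ES_Empty in ES_Dux, and Nupr1 was higher than ES_Empty in ES_Obox6. Asns, another ATF4 target, was not called, at a log2 fold change of -0.90 that became 0.25 with the deposited TPM.

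Of 23 tested p53 target genes 7 were higher and 1 lower, beside 6.99% and 7.82% of all genes, with a median of 0.71, and 3 to 6 were higher when single libraries were left out. On the deposited scale 18 were higher, where 36.3% of all genes were, and 1 was lower. Pmaip1, which encodes the pro-apoptotic protein NOXA, was the lower one. It stood at 16.9 and 14.7 TPM in ES_Obox6, against 98.4 and 100 TPM in ES_Dux and 23.7 and 27.2 TPM in ES_Empty (log2 fold change to ES_Dux -2.58 ± 0.12 SE, adjusted p = 1.5e-05). Ei24, an endoplasmic reticulum protein gene induced by p53, stood at 42.2 and 43.1 TPM in ES_Obox6, against 9.08 and 11.1 TPM in ES_Dux and 12.0 and 12.9 TPM in ES_Empty (log2 fold change to ES_Dux 1.99 ± 0.10 SE, adjusted p = 2.4e-05). Ccng1, a cyclin G gene, was higher (1.14). Mdm2 and Cdkn1a, direct p53 targets named after their values were seen, were not called, at log2 fold changes of 0.60 and 0.32.

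Among Krueppel-like factors, zinc-finger proteins with roles from pluripotency to metabolism, 3 of 14 were higher and none was lower, beside 6.99% and 7.82% of all genes, and the median was 0.40. Klf9 stood at 28.3 and 34.9 TPM in ES_Obox6, against 8.31 and 12.6 TPM in ES_Dux and 22.4 and 21.5 TPM in ES_Empty (log2 fold change to ES_Dux 1.53). Klf15 (1.52) and Klf6 (1.29) were the other two. Klf4, a reprogramming factor, stood at 42.4 and 41.2 TPM in ES_Obox6, against 29.0 and 25.7 TPM in ES_Dux, a difference under the fold threshold (0.60). Klf17, which is abundant in the 2-cell embryo, was at 0.0797 and 0.942 TPM in ES_Obox6, against 0.113 and 1.204 TPM in ES_Dux, and the groups overlapped. With the deposited TPM 9 of the 14 were higher, where 36.3% of all genes were.

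Oocyte and germline genes were mostly not called after scaling. Nlrp4b, an oocyte NLR gene, stood at 0.0852 and 0.0458 TPM in ES_Obox6, against 4.75 and 3.94 TPM in ES_Dux (log2 fold change -2.32), and the piRNA pathway gene Tdrd1 at 0.246 and 0.302 TPM in ES_Obox6, against 4.87 and 2.79 TPM in ES_Dux (log2 fold change -1.89). Sycp3, a component of the meiotic synaptonemal complex, went the other way, at 29.2 and 21.7 TPM in ES_Obox6, against 5.45 and 5.43 TPM in ES_Dux and 4.37 and 3.22 TPM in ES_Empty (log2 fold change to ES_Dux 2.02 ± 0.19 SE, adjusted p = 0.00033). Counts were 1 higher and 2 lower of 12 oocyte genes, and 1 higher and 2 lower of 19 germline genes, beside 6.99% higher and 7.82% lower over all genes. These counts depended on the scale: with the deposited TPM 2 oocyte and 9 germline genes were higher and 1 of each list was lower, beside 36.3% and 3.74% of all genes. Of 14 tested Obox and related homeobox genes 3 were higher and 4 lower, beside 6.99% and 7.82% of all genes. The transfected genes are counted here, Obox6 among the higher and Duxf3 among the lower. With the deposited TPM 3 were called in each direction, beside 36.3% higher and 3.74% lower over all genes. Beside Obox6 and Gsc, the higher one was Crxos, an Obox-related homeobox gene, at 8.67 and 6.29 TPM in ES_Obox6, against 0.274 and 0.733 TPM in ES_Dux (log2 fold change 2.50). Obox4-ps27 was listed at 0 in both ES_Obox6 libraries, against 18.8 and 17.5 TPM in ES_Dux, and was listed at 0 in ES_Empty.

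**Figure D4:**
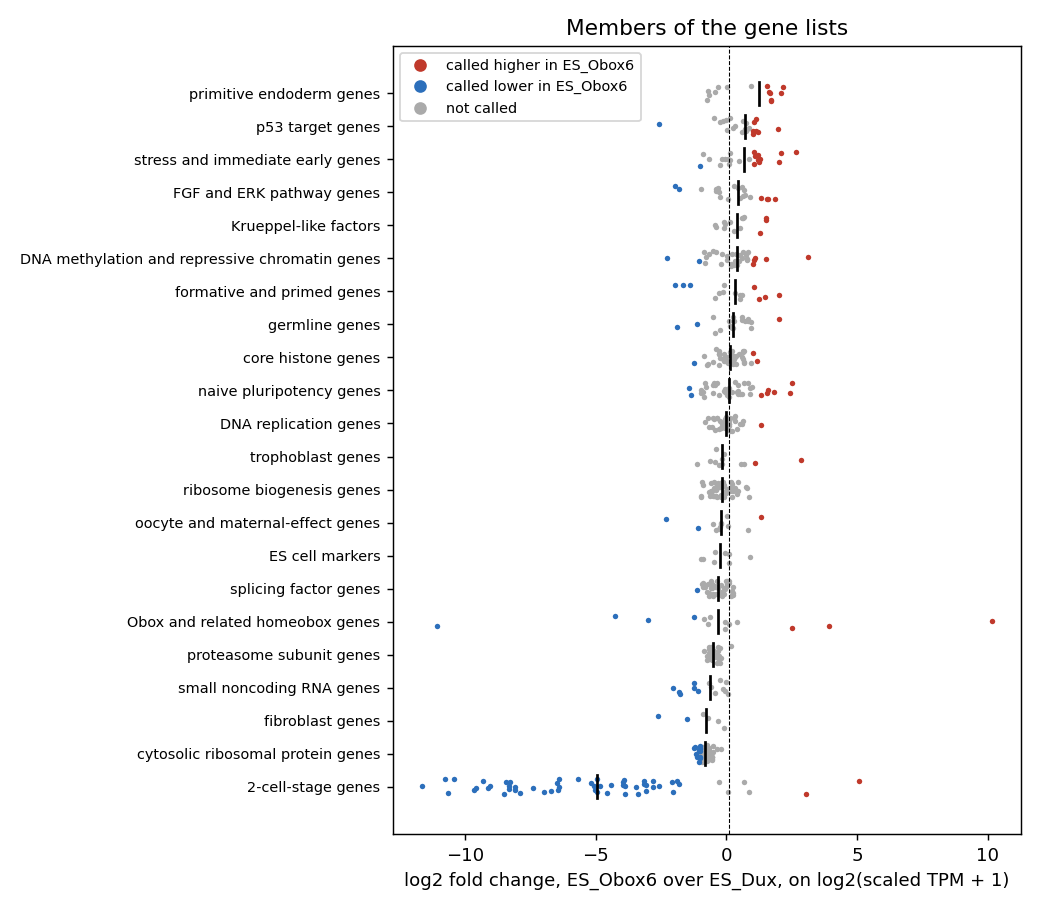
Log2 fold change, ES_Obox6 over ES_Dux, of each tested member of 22 gene lists, with red for genes called higher and blue for genes called lower in ES_Obox6. Black bars are list medians and the dashed line is the median of all genes tested, 0.09. The 2-cell-stage list, with a median of -4.97, stands far to the left, and primitive endoderm genes, at 1.26, have the highest median.

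A microRNA cluster was the largest run of higher genes. The miR-290 to miR-295 cluster, the main microRNA source of ES cells, lies on chromosome 7, and the run from 3218626 to 3249771 held 9 higher genes, 8 of the 9 tested microRNA genes of the cluster and Nlrp12. Mir292b, the other one, was not called, at 4.11 and 22.1 TPM in ES_Obox6, against 5.80 and 1.92 TPM in ES_Dux. Mature microRNAs act through their seed, and 3 members of the cluster share the seed AAGUGCU, shown in capitals with sequences from RefSeq (GRCm38.p6).
miR-291a-3p: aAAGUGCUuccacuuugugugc
miR-294-3p: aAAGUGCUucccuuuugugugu
miR-295-3p: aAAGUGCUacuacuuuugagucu
Mir294 stood at 23.9 and 25.3 TPM in ES_Obox6, against 4.83 and 5.72 TPM in ES_Dux and 15.8 and 18.6 TPM in ES_Empty (log2 fold change to ES_Dux 2.03 ± 0.37 SE, adjusted p = 0.0059). Mir290a stood at 92.8 and 66.4 TPM in ES_Obox6, against 16.3 and 22.5 TPM in ES_Dux and 65.9 and 67.2 TPM in ES_Empty (log2 fold change to ES_Dux 1.98 ± 0.20 SE, adjusted p = 0.00043). In both genes ES_Obox6 was not called against ES_Empty and ES_Dux was called lower than it. Mir290a and Mir290b overlap on opposite strands and their reads may not be separable. The microRNA genes are far shorter than 1 kb, so 1 read on them stands for far more TPM. Mir294, from 3220641 to 3220724, was at 2.52 and 3.17 deposited TPM in ES_Dux, which rests on very few reads. The ES_Dux side of this run is therefore uncertain gene by gene. Total RNA libraries count reads on the gene, and the mature microRNAs were not measured.

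Abundant housekeeping genes depended on the scale. All 78 cytosolic ribosomal protein genes had lower values in ES_Obox6 after scaling, with a median of -0.82. Of these, 13 were called lower, beside 7.82% of all genes tested. With the deposited TPM none was called and the median was 0.34, beside 0.85 over all genes. Rps2 stood at 511 and 517 TPM in ES_Obox6, against 1230 and 1223 TPM in ES_Dux and 602 and 550 TPM in ES_Empty (log2 fold change to ES_Dux -1.25, and -0.08 with the deposited TPM). Of 14 small noncoding RNA genes 6 were lower and none higher after scaling, beside 7.82% and 6.99% of all genes. With the deposited TPM none was lower and 2 were higher, beside 3.74% and 36.3% of all genes. Rn7sk, the RNA that holds the elongation factor P-TEFb inactive, stood at 12600 and 12898 TPM in ES_Obox6, against 45348 and 42620 TPM in ES_Dux and 15815 and 13509 TPM in ES_Empty (log2 fold change to ES_Dux -1.79, and -0.61 with the deposited TPM). None of the proteasome or ribosome biogenesis genes was called after scaling (32 and 54 tested). Among 44 splicing factor genes 1 was lower, and among 40 DNA replication genes 1 was higher. Among 44 core histone genes 2 were higher and 1 was lower. Over all genes 6.99% were higher and 7.82% lower. None of these 5 lists had a lower gene with the deposited TPM, and higher calls went to 1 proteasome, 20 ribosome biogenesis, 13 splicing factor, 24 DNA replication and 33 core histone genes, beside 36.3% of all genes.

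**Figure D5:**
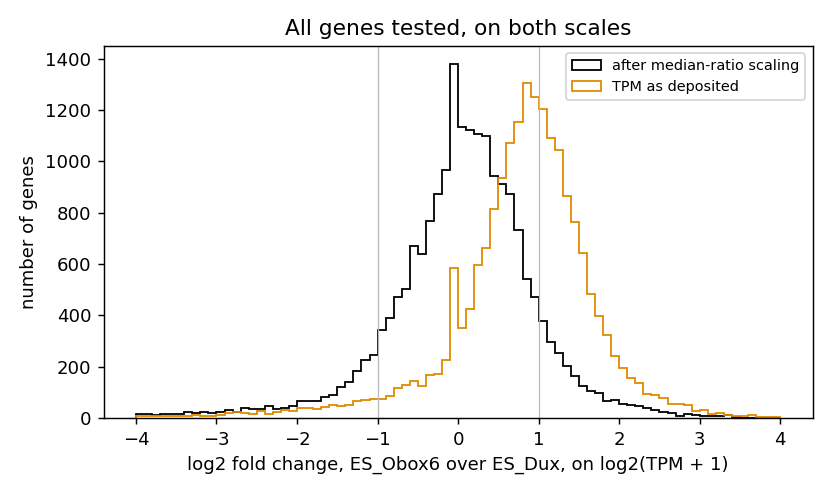
Number of genes by log2 fold change, ES_Obox6 over ES_Dux, after median-ratio scaling (black) and with the TPM as deposited (orange), with grey lines at a change of 1 in either direction. The black curve centres near 0 and the orange curve is moved to the right, with a median of 0.85.

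Some genes stood above the control by a like amount in both groups. Of 109 genes called higher than ES_Empty in each group, 40 had a 95% confidence interval for ES_Obox6 over ES_Dux within 1 on the log2 scale in either direction. A2m, the protease inhibitor alpha-2-macroglobulin, stood at 21.5 and 21.9 TPM in ES_Obox6, against 21.1 and 22.3 TPM in ES_Dux and 0.467 and 0.700 TPM in ES_Empty. Aqp9, an aquaglyceroporin, stood at 5.38 and 4.74 TPM in ES_Obox6, against 3.46 and 3.14 TPM in ES_Dux and 0 and 0.111 TPM in ES_Empty. For A2m the libraries of the 2 groups overlapped, and for Aqp9 ES_Obox6 was above ES_Dux without reaching the threshold (log2 fold change 0.49). With the deposited TPM, A2m was called higher in ES_Obox6 (1.11) and so was Aqp9 (1.36). Because ES_Empty serves both contrasts, the number of shared genes is a description and not a test.

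By gene class, 376 of 2380 pseudogenes (15.8%) and 565 of 11505 protein-coding genes (4.91%) were lower in ES_Obox6, and 83 pseudogenes and 826 protein-coding genes were higher. Of the 376 lower pseudogenes 126 were listed at 0 in both ES_Obox6 libraries, as were 67 of the 565 lower protein-coding genes. Of 1547 small RNA genes 136 were higher, but 97 of these were listed at 0 in both ES_Dux libraries and rest on low levels. The genes were also looked up in late 2-cell embryos made by sperm injection (ICSI), 2 libraries of the series that were normalised separately. Of the 102 genes lower by at least 32-fold, 90 (88.2%) reached 1 TPM in both embryo libraries, with a median of 31.6 TPM, against 60.9% and 3.02 TPM over all genes tested. Over the full sets, 59.1% of the 1403 higher genes and 57.2% of the 761 genes lower on both scales reached 1 TPM there, with medians of 3.20 and 3.07 TPM, each near the values of all genes. Trim43a averaged 84.4 TPM, Zfp352 106 TPM and Dppa3 1763 TPM in these embryos.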

How the data were processed

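Total RNA of transfected mouse ES cells had been sequenced with a stranded SMART-seq kit, per the labels' protocols. The authors deposited TPM per gene for 19 ES cell libraries, 1 column a library. Per the submitters' processing notes, tools named for the series are Trim Galore, HISAT2, featureCounts 1.6.5, Bowtie2, bedtools, deepTools and MACS2, with the mm10 build. No settings or roles were stated. TPM are not counts, so no count model was used.

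The TPM were divided by median-ratio factors over 9074 genes at 1 TPM or more in every one of 10 replicated libraries (ES_Obox6, ES_Dux, ES_Obox3, ES_Obox5 and ES_Empty, 2 each), log2-transformed with a pseudocount of 1 and fitted by group with limma 3.58.1 (trend and robust moderation, statmod 1.5.0, R 4.3.3), with Benjamini-Hochberg adjustment over 20063 genes. The pseudocount makes fold changes of low genes too small. The fit had 5 residual degrees of freedom and prior degrees of freedom of 2.15 to 2.16. It was tested on simulated data.

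Genes were named by rule: Obox6 and Duxf3; the 10 largest changes in each direction called on both scales, without overlap of the groups and at 10 TPM or more; up to 4 of smallest adjusted p in each of 22 lists; a set of stage and pluripotency genes; and up to 6 genes raised alike in both groups. Other genes named to complete a list or family were chosen after their values were seen. The members and lists were chosen with earlier results of these data known. Of the tested genes, 16382 matched a RefSeq record by symbol. Of a symbol held by more than 1 gene (107 symbols), the gene of highest mean was used. Alternatives were other scalings, pseudocounts, filters, moderation, fitted libraries and leaving out each library.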

Additional observations from a re-analysis of the deposited data

How the results depend on the processing

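No paired analysis was possible because the ES_Obox6 and ES_Dux columns share fewer than 2 replicate numbers. The count of genes higher in ES_Obox6 was 1403 and that of lower genes 1569. With the TPM as deposited they were 7396 and 761, with a pseudocount of 5 they were 343 and 708, and with a filter at 5 TPM they were 836 and 888, of 9460 genes tested. Leaving out single libraries gave 1066 to 1464 higher and 994 to 1391 lower genes, where a group left with 1 library is assumed to vary like the others. The lowest counts of lower genes, 994 without ES_Dux replicate 1 and 1035 without the unnumbered ES_Dux library, were over 1.5 times under 1569. The filter was applied anew in these fits, so genes high only in ES_Dux could leave the test without 1 of its libraries. Such genes and genes that lost their call are not separated in these counts. The other alternatives (upper-quartile and trimmed mean scaling, the 4 ES_Obox6 and ES_Dux libraries alone, a pseudocount of 0.1, no filter and no moderation by trend) kept both counts within 1.5 times.

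Of 111 named genes, 28 changed the sign of the log2 fold change with the TPM as deposited, 4 of them genes called lower after scaling: Rpl10l at 0.024, Rps16 at 0.13, Rps6 at 0.15 and Rps3a1 at 0.16. The other signs turned in genes not called after scaling. Values were 0.19 for Pou5f1, 0.15 for Fbl, 0.24 for Snrpb, 0.24 for Taf1d, 0.24 for Fn1, 0.25 for Asns, 0.19 for Sox2, 0.30 for Psmd8, 0.32 for H2az1, 0.45 for Hnrnpc, 0.45 for Lig1, 0.090 for Col5a1, 0.44 for Rfc5, 0.49 for Psmb4, 0.54 for Psmd4, 0.38 for Gm4285, 0.58 for Hnrnpa1, 0.58 for Psmc3, 0.69 for Mcm2, 0.70 for Esrrb, 0.96 for Gm25939, 0.69 for A430060F13Rik, 0.19 for Klf17 and 1.11 for A2m. This follows from the shift of the median of all genes by 0.76 between the scales. A2m, at 0 after scaling, was at 0.085 with upper-quartile scaling, 0.0068 in the 4 libraries alone, and from -0.056 without ES_Dux replicate 1 to 0.032 without the unnumbered ES_Dux library, with 0.015 without ES_Obox6 replicate 1. Klf17 ranged from -0.65 without ES_Dux replicate 1 to 0.40 without the unnumbered ES_Dux library, with 0.31 without ES_Obox6 replicate 1. Gm25939 ranged from -0.44 without ES_Obox6 replicate 2 to 0.013 without ES_Obox6 replicate 1, and Mrps36-ps1 from -0.030 without ES_Obox6 replicate 2 to 0.24 without ES_Obox6 replicate 1. Leaving out single libraries ended the call of 13 of the 111 named genes under at least 1 omission. Some named genes failed the filter without an ES_Dux library and were not tested there, so they count as neither kept nor lost. With a pseudocount of 5, 17 named calls ended, those of Gata4 at 0.64, Gata6 at 0.56 and Dppa3 at 0.88 among them. With 2 libraries a group and about 4 to 7 reads behind 1 TPM of a 1 kb transcript, differences among genes near 1 TPM are the least certain.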
